A study of Mus musculus with 6 samples.

Results

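Chemokines, interleukins and the genes of the NF-κB pathway were examined in muscle stem cells (MuSCs) of mice lacking the transcription factor subunit TAF4A in their Pax7-lineage cells. The genes were taken by name: those whose symbol begins with Ccl, Cxcl, Nfkb or Tnfaip as family names do, the interleukins, Csf1 to Csf3, and Lif, Rela, Relb, Ptgs2, Cx3cl1 and Icam1, wherever their normalized counts averaged 5 or more over the 6 libraries. Of 59 genes with such a symbol, 45 reached that mean, out of 18562 genes that did so and 22081 in the table. The rule reads the symbol and the mean over both groups. Ptgs2, with a mean of 5.33, lay just inside the limit, and Cxcl11 and Il5, each at 4.5, lay just outside it. Ptgs2 was also the 1 member whose control mean was under 5, and no member had a Taf4asKO mean under 5.

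RNA-seq libraries were made from freshly isolated MuSCs of 3 control and 3 Taf4asKO samples, all from mice on a C57BL/6 background. Taf4asKO mice carried floxed Taf4a alleles and a Pax7-CreERT driver that is active in Pax7-expressing cells, and exons of Taf4a were deleted after tamoxifen. Controls were littermates with floxed Taf4a, with or without the Pax7-CreERT allele, and are labelled WT or Control. The sources used here do not say which of these genotypes each control library had and do not give the number of animals behind a library. The study's reporting summary names tamoxifen treatment only for Taf4asKO mice, and whether the controls received it is not stated there. Adult mice of either sex were used. Cells positive for SCA1, CD45 or CD31 were depleted with magnetic beads before sorting, and Integrin-α7-positive or reporter-positive cells were collected, with 90000 cells and 10 ng of RNA given in the labels.

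Chemokines are small secreted proteins that draw leukocytes along a gradient, and their CC and CXC classes act mainly on monocytes, lymphocytes or neutrophils through G-protein-coupled receptors. Interleukins and colony-stimulating factors carry signals between immune and tissue cells, many but not all of them through JAK-STAT or MyD88-linked receptors. Many of these genes are switched on by NF-κB, a family of dimers formed by RELA, RELB, REL and the products of Nfkb1 and Nfkb2, which IκB proteins hold inactive and which in turn induces its own inhibitors Nfkbia and Tnfaip3. In skeletal muscle, monocytes and neutrophils enter after injury, and MuSCs can themselves secrete chemokines.

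Promoter sequence is shown for 5 members because the group includes both targets of NF-κB and its feedback inhibitors, and the letters that NF-κB dimers bind can be seen directly. The sequences are from RefSeq on GRCm38.p6, are written 5′ to 3′ on the gene's own strand up to the base before the RefSeq start, and capitals mark matches to the NF-κB consensus on either strand. Overlapping matches are merged into 1 run of capitals.
Cxcl1, chr5:90891125-90891244, plus strand: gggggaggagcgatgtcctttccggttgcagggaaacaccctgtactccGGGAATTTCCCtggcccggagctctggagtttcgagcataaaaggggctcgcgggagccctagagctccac
Cxcl2, chr5:90903779-90903898, plus strand: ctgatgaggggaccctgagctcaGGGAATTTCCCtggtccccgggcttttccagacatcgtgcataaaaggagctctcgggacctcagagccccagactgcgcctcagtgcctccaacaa
Cxcl10, chr5:92348890-92349089, minus strand: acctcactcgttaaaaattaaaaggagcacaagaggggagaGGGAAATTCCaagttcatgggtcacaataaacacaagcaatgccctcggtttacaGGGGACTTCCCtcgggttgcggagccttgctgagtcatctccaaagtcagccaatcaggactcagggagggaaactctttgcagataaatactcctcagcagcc
Nfkbia, chr12:55492648-55492767, minus strand: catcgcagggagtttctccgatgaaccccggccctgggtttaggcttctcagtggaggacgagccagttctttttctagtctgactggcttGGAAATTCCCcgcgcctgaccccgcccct
Tnfaip3, chr10:19015411-19015560, minus strand: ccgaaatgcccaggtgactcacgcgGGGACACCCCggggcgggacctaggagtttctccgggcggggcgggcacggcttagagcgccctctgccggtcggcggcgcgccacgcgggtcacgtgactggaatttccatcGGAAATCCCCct
Cxcl1 and Cxcl2 held the same run of capitals, and Cxcl10 and Tnfaip3 each held 2 runs.

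Over windows of 300 bases, from 250 before to 50 after the start, the NF-κB consensus was present for 14 of the 33 members with a promoter entry (42.4%), against 12.3% of the tested genes with an entry and 9.55% of all genes with an entry. It was present for 4 of the 7 members with an entry that were higher in Taf4asKO MuSCs, for 1 of the 2 that were lower and for 9 of the 24 that passed in neither direction (37.5%). For comparison, TATAAA was found on either strand for 7 of the 33 members (21.2%) against 8.95% of the tested genes and 15.7% of all genes, and CCAAT for 13 of the 33 (39.4%) against 42.1% and 41.1%. Members without an entry were Ccl2, Ccl7, Ccl11, Cxcl16, Il10, Il15, Il23a, Il34, Nfkb1, Nfkbiz, Relb and Tnfaip8. These matches describe the letters in the window and not occupied sites.

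The values are counts that the authors divided by DESeq2 size factors and rounded, called normalized counts here. They summed to between 12338676 and 14551732 per library. On log2 values, pairs of libraries of the same group correlated with Pearson's r of 0.961 to 0.984, and no pair was identical. Taf4, the gene that encodes TAF4A, had normalized counts of 613, 534 and 478 in the controls and 631, 565 and 574 in the Taf4asKO libraries, here and throughout in the order of replicates 1, 2 and 3 (log2 fold change 0.13 ± 0.12 SE, adjusted p = 0.524 by limma). A total over all exons includes those outside the deleted part, so it does not check the deletion, and the groups are named by their labels. The MuSC label was met by high levels of its defining markers, with Pax7 at 10363 to 13007 and Myf5 at 1147 to 2351 normalized counts over the 6 libraries, though 2 of its 11 markers were higher and 5 lower in Taf4asKO MuSCs (63.6% against 12.6% of all genes tested). Myf5 was among the lower ones (log2 fold change -0.85), as was Cd34, with 868, 836 and 1087 against 216, 259 and 232 (log2 fold change -1.97). Because RNA was taken from bulk samples, fewer cells of a type and less RNA per cell cannot be told apart.

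A gene passed the test when limma's adjusted p, over 18562 genes, was under 0.05 and its fold change was at least 1.3. Of the 45 members, 9 were higher in Taf4asKO MuSCs, 2 were lower and 34 did not pass. Across all genes tested, 12.6% passed (5.93% higher and 6.71% lower), and 24.4% of the members did. The members higher were the chemokines Ccl2, Ccl7, Cxcl1, Cxcl2, Cxcl10 and Cxcl12, the cytokines Il33 and Csf1, and the hyaluronan-binding protein gene Tnfaip6. Both lower members, Rela and Tnfaip3, belong to the NF-κB machinery itself. The median log2 fold change was 0.28 over the members and 0.00 over all genes tested, and 32 of the 45 lay above 0. All 3 Taf4asKO libraries were above all 3 controls for 13 members and below them for 2, while 33% of all genes tested separated in one direction or the other.

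**Figure D1:**
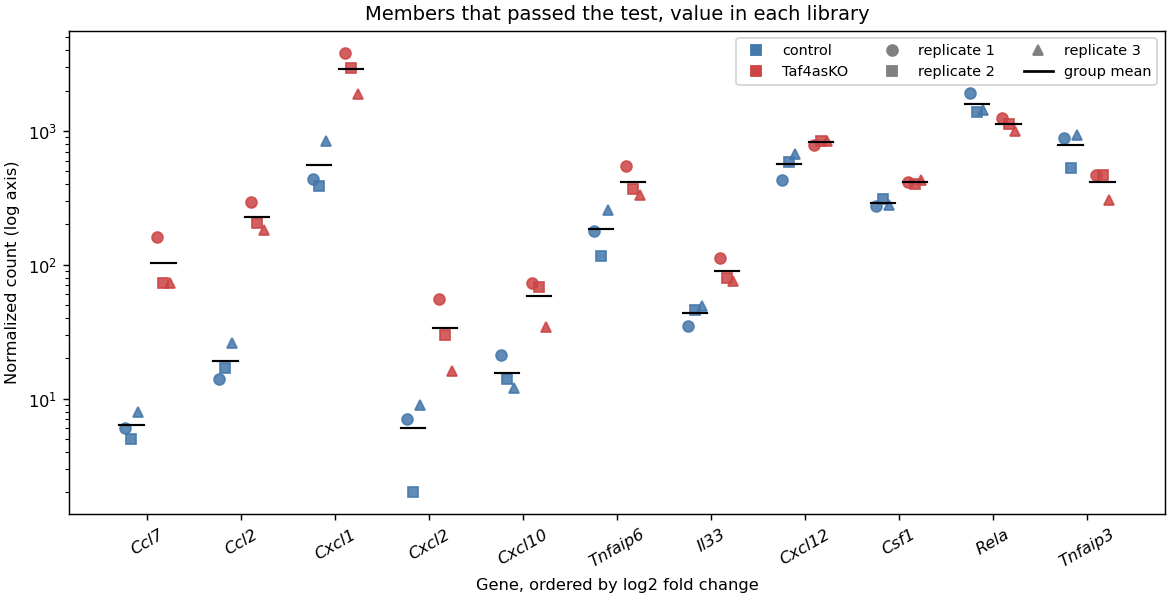
Normalized count on a log axis for the 11 members that passed the test, with each library a point (circles replicate 1, squares replicate 2, triangles replicate 3) and group means as bars. The controls of Ccl2 lie between 14 and 26 and its Taf4asKO libraries between 181 and 296, while for Cxcl12 and Csf1 the groups are separate but close.

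The monocyte-attracting chemokine genes Ccl2 and Ccl7 had the largest fold changes of the 45 members. They are neighbours on chromosome 11, Ccl2 at bases 82035571 to 82037453 and Ccl7 at bases 82045712 to 82047525 on the same strand, with 8258 bases between them. Ccl2, whose product recruits monocytes through CCR2, had normalized counts of 14, 17 and 26 in the controls and 296, 204 and 181 in the Taf4asKO libraries. Every Taf4asKO library was thus far above every control. The mean rose from 19.0 ± 6.24 (SD, n = 3) to 227 ± 60.9 (SD, n = 3), with a log2 fold change of 3.52 ± 0.28 (SE, adjusted p = 0.000107 by limma). Ccl7, a relative of Ccl2 that also acts on monocytes, had 6, 5 and 8 in the controls and 162, 73 and 73 in the Taf4asKO libraries. The controls were close to the lower limit of 5, and Taf4asKO replicate 1 was the highest library. Its log2 fold change was 3.74 ± 0.37 (SE, adjusted p = 0.000364 by limma).

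Ccl11, the eotaxin gene that follows Ccl7 on the same strand after 10297 bases, did not pass. It had 20, 60 and 42 normalized counts in the controls and 64, 87 and 97 in the Taf4asKO libraries. The groups did not overlap, but the lowest Taf4asKO library was close to the highest control. Its log2 fold change was 1.12 ± 0.37 (SE, adjusted p = 0.0730 by limma), and with the replicate block described in the processing section it passed (adjusted p = 0.0118).

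The neutrophil-attracting chemokine genes Cxcl1 and Cxcl2, ligands of CXCR2, were both higher. They also lie beside each other, on chromosome 5 with 10755 bases between them. Cxcl1 had 434, 384 and 837 normalized counts in the controls and 3799, 2955 and 1886 in the Taf4asKO libraries. The groups lay far apart, and the log2 fold change was 2.41 ± 0.30 (SE, adjusted p = 0.00114 by limma). Cxcl2 was far less abundant, with 7, 2 and 9 in the controls and 55, 30 and 16 in the Taf4asKO libraries. Its groups did not overlap, and its log2 fold change was 2.31 ± 0.56 (SE, adjusted p = 0.0252 by limma).

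Scaled to exon length, Cxcl1 was the most abundant chemokine in both groups, at 294 normalized counts per kilobase of exon in controls and 1536 in Taf4asKO MuSCs. On that scale Ccl2 went from 16.7 to 199.5 and Ccl7 from 7.91 to 128, past Cxcl12, which went from 68.9 to 100.7. The summed normalized counts of the 15 chemokines were 1262, 1407 and 2068 in the controls and 5639, 4782 and 3767 in the Taf4asKO libraries. Cxcl1 made up 34.4%, 27.3% and 40.5% of that sum in the controls and 67.4%, 61.8% and 50.1% in the Taf4asKO libraries.

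**Figure D2:**
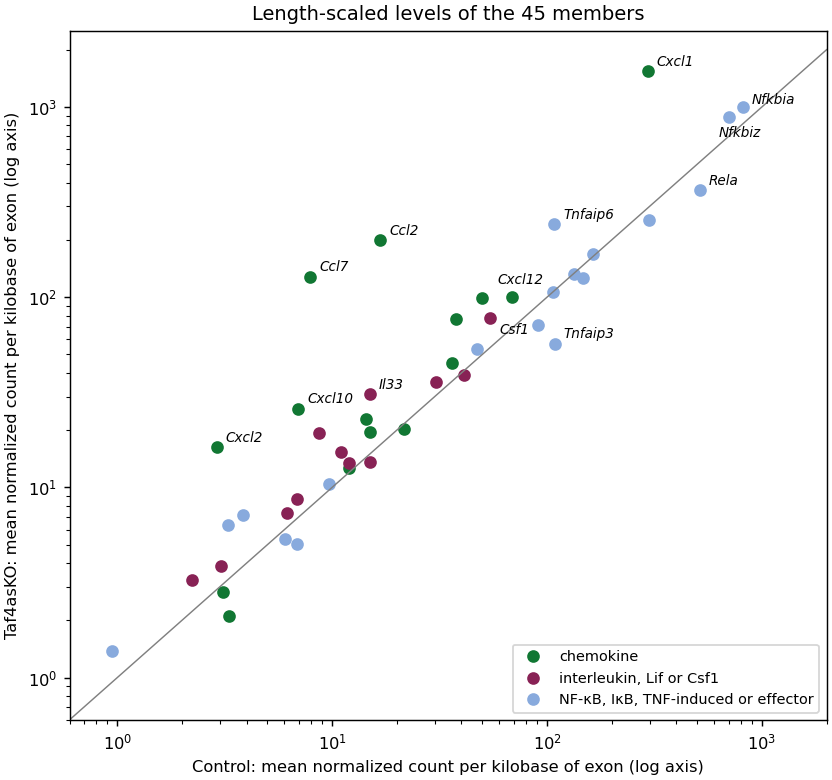
Mean normalized count per kilobase of exon in control (x axis) and Taf4asKO (y axis) libraries for the 45 members, both axes logarithmic, coloured by kind of gene, with the line of equal levels. Ccl2 and Ccl7 lie farthest above the line, Cxcl1 is the highest point, and Rela and Tnfaip3 lie below the line.

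Among the other CXC and CX3C chemokines, Cxcl10 and Cxcl12 passed and Cxcl14, Cxcl16 and Cx3cl1 did not. Cxcl10, an interferon-responsive gene whose product binds CXCR3, had 21, 14 and 12 normalized counts in the controls and 73, 68 and 34 in the Taf4asKO libraries. All Taf4asKO libraries were above all controls (log2 fold change 1.79 ± 0.36 SE, adjusted p = 0.0109 by limma). Of its 2252 exonic bases, 133 are shared with Art3 on the opposite strand, which had 198, 359 and 332 in the controls and 547, 636 and 615 in the Taf4asKO libraries. The study's counting left out reads that overlap several genes, whether strand was used is not stated, and the part of Art3 in the Cxcl10 value was not tested.

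Cxcl12, the homing chemokine that acts through CXCR4 and is scavenged by ACKR3, had 432, 586 and 672 in the controls and 788, 846 and 835 in the Taf4asKO libraries. The Taf4asKO libraries were close together and above every control (log2 fold change 0.57 ± 0.15 SE, adjusted p = 0.0358 by limma). Cxcl14, a chemokine of stromal and epithelial cells, had 48, 127 and 98 against 77, 206 and 262, so the groups overlapped. Its log2 fold change was 0.92 ± 0.45 (SE, adjusted p = 0.209 by limma), and each Taf4asKO library was above the control of the same number, which gave an adjusted p of 0.00705 with the replicate block. Cxcl16, a ligand of CXCR6, had 45, 37 and 49 against 70, 66 and 71, without overlap (log2 fold change 0.66 ± 0.21 SE, adjusted p = 0.0712 by limma). Cx3cl1, the membrane-tethered fractalkine, had 122, 91 and 213 against 171, 153 and 208, which overlapped (log2 fold change 0.40, limma adjusted p = 0.376).

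The remaining CC chemokines Ccl19, Ccl21a, Ccl25, Ccl27a and Ccl28 mainly guide lymphocytes or act in epithelia. Their log2 fold changes ranged from -0.57 to 0.35, none passed, and their groups overlapped. Ccl21a and Ccl27a have near-identical copies in the mouse genome, so their counts are uncertain. Over all 15 chemokines, 6 were higher and 0 lower by limma's test (40.0% against 12.6% of all genes tested). An unadjusted p under 0.05 was found for 8 (53.3% against 28.8% of all genes tested), and the median log2 fold change was 0.66.

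The 12 cytokines other than chemokines are the interleukins with Lif and Csf1. By limma's test 2 of them were higher and 0 lower (16.7% against 12.6% of all genes tested). An unadjusted p under 0.05 was found for 3 (25.0% against 28.8% of all genes tested), with a median log2 fold change of 0.26. Il33, an IL-1 family alarmin released from damaged stromal cells, had 35, 46 and 49 normalized counts in the controls and 112, 80 and 76 in the Taf4asKO libraries. Its groups did not overlap (log2 fold change 1.02 ± 0.24 SE, adjusted p = 0.0208 by limma). Csf1, the growth factor of the macrophage lineage, had 276, 309 and 277 against 414, 398 and 426. Both groups had little spread, and the mean rose from 287 ± 18.8 to 413 ± 14.1 (SD, n = 3 each, log2 fold change 0.52 ± 0.11 SE, adjusted p = 0.0156 by limma).

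Il6, an acute-phase cytokine, had 14, 14 and 35 in the controls and 71, 35 and 34 in the Taf4asKO libraries. Control replicate 3 lay among the Taf4asKO libraries, and the difference did not pass (log2 fold change 1.16 ± 0.42 SE, adjusted p = 0.102 by limma). Without control replicate 3 it passed (adjusted p = 0.0339 by limma). Il16, a chemoattractant of CD4+ cells, had 66, 110 and 108 against 84, 108 and 126 (log2 fold change 0.18, limma adjusted p = 0.677). Lif, which sustains myoblast and stem cell growth, Il11, Il10, Il12a, Il15, Il18, Il23a and Il34 had log2 fold changes of -0.14 to 0.52 and none passed.

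Of the 4 NF-κB subunits, 0 were higher and 1 was lower by limma's test (25.0% against 12.6% of all genes tested), and 1 had an unadjusted p under 0.05 (25.0% against 28.8%). Rela, which encodes the main transactivating subunit p65, had 1921, 1383 and 1435 normalized counts in the controls and 1240, 1116 and 1003 in the Taf4asKO libraries. Every Taf4asKO library was below every control, and the log2 fold change was -0.49 ± 0.14 (SE, adjusted p = 0.0461 by limma). Relb, of the alternative pathway, had 415, 302 and 337 against 348, 240 and 247 (log2 fold change -0.34, limma adjusted p = 0.229). Nfkb2, the precursor of its partner p52, had 1810, 1012 and 1280 against 1336, 1149 and 1013 (log2 fold change -0.20, limma adjusted p = 0.538). Both overlapped between the groups. Nfkb1, the precursor of p50, was at 1287 ± 68.0 in controls and 1282 ± 107 in Taf4asKO MuSCs (SD, n = 3 each).

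None of the 5 IκB proteins and relatives passed limma's test, against 12.6% of all genes tested, and 0 had an unadjusted p under 0.05, against 28.8%. Nfkbia, which encodes the feedback inhibitor IκBα, had 1482, 1047 and 1412 normalized counts in the controls and 1633, 1794 and 1374 in the Taf4asKO libraries (log2 fold change 0.29, limma adjusted p = 0.225). Nfkbiz, a nuclear IκB that helps induce secondary response genes, had the highest mean of the members, with 4256, 2614 and 3768 against 5196, 4245 and 3904 (log2 fold change 0.35, limma adjusted p = 0.222). The groups overlapped for both. Nfkbib, Nfkbie and the IκB-like gene Nfkbil1 had log2 fold changes of -0.02, -0.17 and 0.19. Scaled to exon length, Nfkbia and Nfkbiz were the most abundant of these genes in controls, at 816 and 707 normalized counts per kilobase, with Rela at 514 and Nfkb2 at 298.

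Of the 7 TNF-induced proteins, 1 was higher and 1 was lower (28.6% against 12.6% of all genes tested), and 4 had an unadjusted p under 0.05 (57.1% against 28.8%). Tnfaip6, whose product TSG-6 links hyaluronan chains and restrains neutrophil entry, had 179, 116 and 258 normalized counts in the controls and 548, 365 and 332 in the Taf4asKO libraries. Its groups did not overlap (log2 fold change 1.21 ± 0.28 SE, adjusted p = 0.0191 by limma). Tnfaip3, which encodes the ubiquitin-editing inhibitor A20 that shuts off NF-κB signalling, had 887, 532 and 933 against 466, 465 and 304. All Taf4asKO libraries were below all controls (log2 fold change -0.91 ± 0.23 SE, adjusted p = 0.0278 by limma).

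Tnfaip8 had 27, 37 and 55 in the controls and 83, 72 and 67 in the Taf4asKO libraries, without overlap (log2 fold change 0.94 ± 0.28 SE, adjusted p = 0.0522 by limma, and 0.0348 with the replicate block). Of its 10328 exonic bases, 1312 are shared with a gene on the opposite strand. Tnfaip2 had 5, 21 and 23 against 37, 29 and 29, again without overlap, with control replicate 1 far below the other controls (log2 fold change 1.14 ± 0.50 SE, adjusted p = 0.163 by limma). Tnfaip1, Tnfaip8l1 and Tnfaip8l2 had log2 fold changes of 0.05, -0.15 and -0.42 and did not pass. Over the 16 NF-κB, IκB and TNF-induced genes, 1 was higher and 2 were lower (18.8% against 12.6% of all genes tested), 5 had an unadjusted p under 0.05 (31.2% against 28.8%), and the median log2 fold change was -0.01. The remaining members, the prostaglandin synthase gene Ptgs2 and the adhesion molecule gene Icam1, did not pass, with log2 fold changes of 0.58 and 0.09. Ptgs2 was near the lower limit, at 1, 5 and 7 against 3, 7 and 9.

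**Figure D3:**
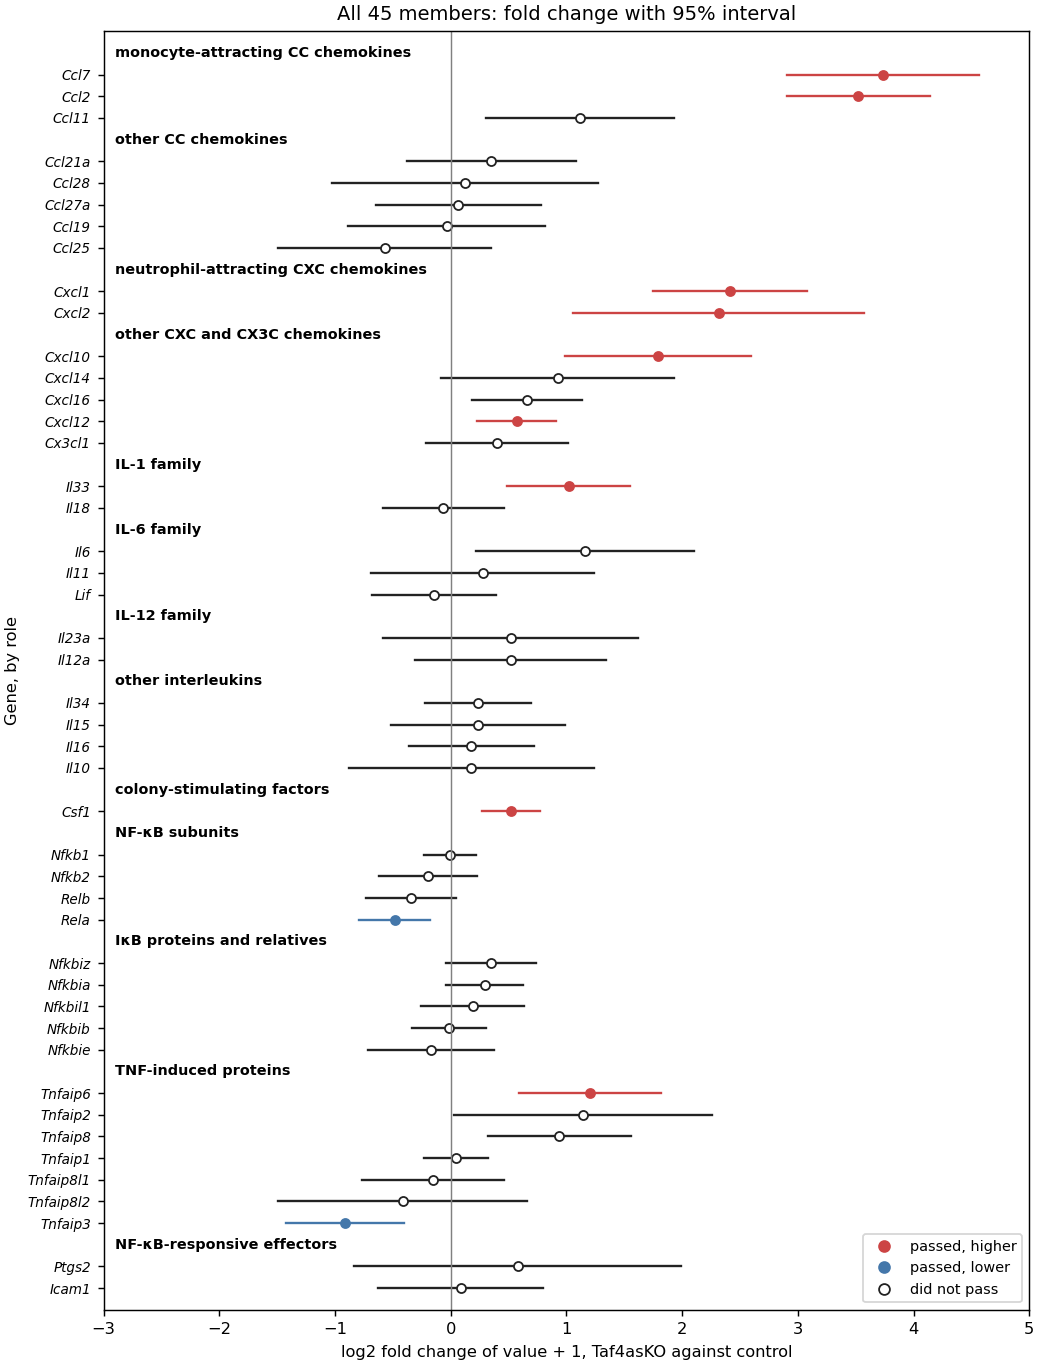
The log2 fold change of value + 1 (Taf4asKO against control) with its 95% interval for all 45 members, grouped by role, with filled points for those that passed the test. The higher members are chemokines, Il33, Csf1 and Tnfaip6, and the lower ones are Rela and Tnfaip3.

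The number of members that passed changed with the libraries included. Taf4asKO replicate 1 was the highest of the 6 libraries for 7 of the 9 higher members, for 18 of all 45 members (40.0%) and for 16.5% of all genes tested. Without Taf4asKO replicate 1, 3 members were higher, against 2.72% of all genes tested, and without Taf4asKO replicate 2 also 3, against 1.84%. In both cases these were Ccl2, Ccl7 and Cxcl1. Without Taf4asKO replicate 3, 6 were higher, against 1.97%, and these were those 3 with Cxcl2, Cxcl10 and Tnfaip6. Without control replicate 1 there were 7, against 4.03%, and Il33 and Cxcl12 did not pass. Without control replicate 2 there were 10, against 8.71%, with Ccl11 added, and without control replicate 3 there were 11, against 5.82%, with Il6 and Tnfaip8 added. Rela and Tnfaip3 passed together without control replicate 2, and neither passed without any 1 of the other libraries.

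Tissue dissociation is known to induce early-response genes such as those of the Fos and Jun families. Of 23 such genes on a list chosen for this comparison, 12 were higher in Taf4asKO MuSCs, among them Fos, Junb, Dusp1 and Mt1, and 2 were lower, the heat shock genes Hspa1a and Hspa1b. That is 60.9% against 12.6% of all genes tested. Fosb and Jun did not pass, with log2 fold changes of 0.17 and 0.19. Their summed normalized counts were 273417 to 322970 in the controls and 407650 to 525472 in the Taf4asKO libraries, and Taf4asKO replicate 1 was the highest library for 17 of the 23 (73.9% against 16.5% of all genes tested). Their part in the chemokine values was not tested.

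Leukocytes also carry chemokine and cytokine RNA, but most markers listed for them had no value analysed here. The level of those markers was not assessed. Of 18 macrophage and myeloid markers, 5 had values, each with a mean of at least 5. Their sum was 441 to 552 in the controls and 679 to 936 in the Taf4asKO libraries. Most of it was Lyz2, at 94, 357 and 320 against 465, 729 and 483 (limma adjusted p = 0.0700, and 0.00396 with the replicate block), and Cd68, at 294, 114 and 185 against 185, 174 and 181. Csf1r, the defining receptor of the lineage, had 34, 17 and 33 against 16, 21 and 17. Of 11 neutrophil markers, only Mmp9 and Ngp had values, and neither reached a mean of 5. Their sum was 3 to 8 in the controls and 4 to 16 in the Taf4asKO libraries. Of 13 lymphocyte markers, only Cd4, Cd8a and Cd79a had values, which summed to 38 to 64 against 29 to 44. Of 7 mast cell markers, only Kit had values, at 2 to 7 against 5 to 13.

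Markers of stromal and other non-muscle cells, some of which also make chemokines and Il33, were present in all libraries. The 12 fibro-adipogenic markers summed to 69869 to 99777 in the controls and 58460 to 82741 in the Taf4asKO libraries. In that sum Col3a1 fell from a mean of 47010 to 15880, while 10 of the 12 markers lay above 0, with a median log2 fold change of 0.77, and 1 (Gsn) was higher and 2 (Col3a1 and Dpt) were lower (25.0% against 12.6% of all genes tested), with 7 at an unadjusted p under 0.05 (58.3% against 28.8%). The 7 tenocyte markers summed to 7642 to 21037 against 10877 to 21012, and 6 lay above 0 with a median of 1.08, none of which passed limma's test or had an unadjusted p under 0.05.

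For 9 pericyte and smooth muscle markers the sums were 25703 to 30652 against 26526 to 31345, much of it Notch3. The median log2 fold change of these 9 was 0.56. Of the 9, 6 lay above 0, while Tagln, Notch3 and Acta2 lay below it (-0.75, -0.33 and -0.31). By limma's test 2 were higher (Rgs5 and Myh11) and 0 lower (22.2% against 12.6%). An unadjusted p under 0.05, in either direction, was found for 8 (88.9% against 28.8% of all genes tested). The 11 endothelial markers summed to 1355 to 1980 against 1930 to 2502, with 9 above 0, a median of 0.71, 0 passing limma's test and 7 with an unadjusted p under 0.05 (63.6% against 28.8%). Schwann cell markers summed to 3242 to 5774 against 6887 to 8169, with a median of 0.86, and 6 of 8 were higher and 1 was lower (87.5% against 12.6% of all genes tested). The 11 myofibre markers summed to 2312 to 6344 against 2863 to 3495, with a median of 0.33. Of these, 0 were higher and 1 was lower (9.09% against 12.6% of all genes tested). The part of any of these cells in the members' values was not tested.

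The receptors and downstream genes were examined through 6 lists of genes that are not members. Of 141 such genes tested out of 189, 26 were higher and 3 lower in Taf4asKO MuSCs, which is 20.6% against 12.6% of all genes tested, and their median log2 fold change was 0.13. Without Taf4asKO replicate 1, 2 or 3 the higher genes numbered 14, 13 and 14. Of all genes tested, 2.72%, 1.84% and 1.97% were higher in these fits, against 5.93% with all libraries. The calls for Cebpd, Gadd45b, Il20rb, Osmr, Steap4, Zfp36 and Nod2 held under every alternative that was run.

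Of 23 chemokine receptors, 8 were tested, and 0 were higher and 1 was lower by limma's test (12.5% against 12.6% of all genes tested). An unadjusted p under 0.05 was found for 2 (25.0% against 28.8% of all genes tested). The lower gene was Ackr3, the scavenger receptor of CXCL12, with 1294, 1344 and 1183 normalized counts in the controls and 806, 914 and 715 in the Taf4asKO libraries (log2 fold change -0.65 ± 0.11 SE, adjusted p = 0.00558 by limma). Cxcr4, the signalling receptor of CXCL12 and a known MuSC surface protein, had 789, 784 and 661 against 672, 482 and 558. These values overlapped, with a log2 fold change of -0.39 ± 0.14 (SE, adjusted p = 0.0926 by limma, and 0.0394 with the replicate block). Ccr2, Cxcr2 and Cxcr3, the receptors of the products of Ccl2, Cxcl1 and Cxcl10, were not analysed here.

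Of 27 cytokine receptors tested, 7 were higher and 1 was lower (29.6% against 12.6% of all genes tested), with a median log2 fold change of 0.34, and 17 had an unadjusted p under 0.05 (63.0% against 28.8%). Osmr, the receptor subunit for oncostatin M, had 150, 110 and 167 normalized counts against 499, 272 and 332 (log2 fold change 1.34 ± 0.23 SE, adjusted p = 0.00534 by limma). Il1rap, the subunit that the IL-1 and IL-33 receptors share, had 142, 167 and 226 against 330, 349 and 388 (log2 fold change 1.02 ± 0.18 SE, adjusted p = 0.00525 by limma). Neither overlapped between the groups. Il20rb and Il4ra were also higher, with log2 fold changes of 1.35 and 0.69, but Il4ra did not pass without control replicate 2 or 3 or Taf4asKO replicate 1 or 3 (adjusted p = 0.0579 to 0.0770 by limma). The lower gene, Il17ra, the receptor for IL-17A, had 3114, 2562 and 3784 against 1911, 1896 and 2096 (log2 fold change -0.66, limma adjusted p = 0.0113). It did not pass without Taf4asKO replicate 2 (adjusted p = 0.0634 by limma), and was named after its value was seen.

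The NF-κB signalling genes, from receptors' adaptors to kinases, showed few calls. Of 49 tested, 2 were higher and 1 was lower (6.12% against 12.6% of all genes), with a median log2 fold change of 0.08. Irak3, which encodes an inhibitory IRAK kinase, rose by 0.77 on the log2 scale, and Birc2, which encodes the ubiquitin ligase cIAP1, rose by 0.47. Birc2 did not pass without any 1 of the Taf4asKO libraries (adjusted p = 0.0510 to 0.0652 by limma), nor Irak3 without Taf4asKO replicate 2 or 3 (0.0697 and 0.0751). Nod2, a sensor of bacterial muramyl dipeptide, had 48, 69 and 30 normalized counts in the controls and 9, 11 and 5 in the Taf4asKO libraries (log2 fold change -2.40 ± 0.41 SE, adjusted p = 0.00475 by limma), and was named after its value was seen.

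Of 21 NF-κB target effectors tested, 8 were higher and 0 lower (38.1% against 12.6% of all genes), and 13 had an unadjusted p under 0.05 (61.9% against 28.8%). Cebpd, a transcription factor of the acute-phase response, had 3627, 2907 and 4620 against 13435, 10094 and 12808 (log2 fold change 1.72 ± 0.17 SE, adjusted p = 0.000326 by limma). The lowest Taf4asKO library was more than double the highest control. Steap4, Gadd45b and the MuSC proteoglycan gene Sdc4 had log2 fold changes of 1.40, 1.04 and 0.88.

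In the JAK-STAT list, 5 of 24 tested genes were higher (20.8% against 5.93% of all genes tested) and 0 lower, and 9 had an unadjusted p under 0.05 (37.5% against 28.8%). The higher genes were Jak1, Stat6, Socs3, Socs4 and Pias1, with log2 fold changes of 0.41 to 0.59. Socs3, the feedback inhibitor of IL-6 family signalling, had 13713, 14739 and 14107 against 25497, 19276 and 18579. Socs3 did not pass without Taf4asKO replicate 1 or 2 or control replicate 1 or 3 (adjusted p = 0.0503 to 0.0615 by limma), Stat6 without Taf4asKO replicate 2 or 3, and Socs4 without any 1 library other than control replicate 2. Of 12 tested genes for cytokine mRNA decay, 4 were higher (33.3% against 5.93%) and 0 lower, and 5 had an unadjusted p under 0.05 (41.7% against 28.8%). Zfp36, which encodes tristetraprolin, a protein that binds AU-rich elements and promotes decay of cytokine mRNAs, had 13960, 10823 and 13498 normalized counts in the controls and 36779, 24617 and 22992 in the Taf4asKO libraries (log2 fold change 1.12 ± 0.18 SE, adjusted p = 0.00372 by limma). Its relatives Zfp36l1 and Zfp36l2 had log2 fold changes of 0.96 and 0.51, and Tial1 of 0.43. Zfp36l2 did not pass without Taf4asKO replicate 1 or 2 or control replicate 1 (adjusted p = 0.0510 to 0.0924 by limma), nor Tial1 without any 1 of the Taf4asKO libraries or control replicate 3 (0.0790 to 0.120).

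**Figure D4:**
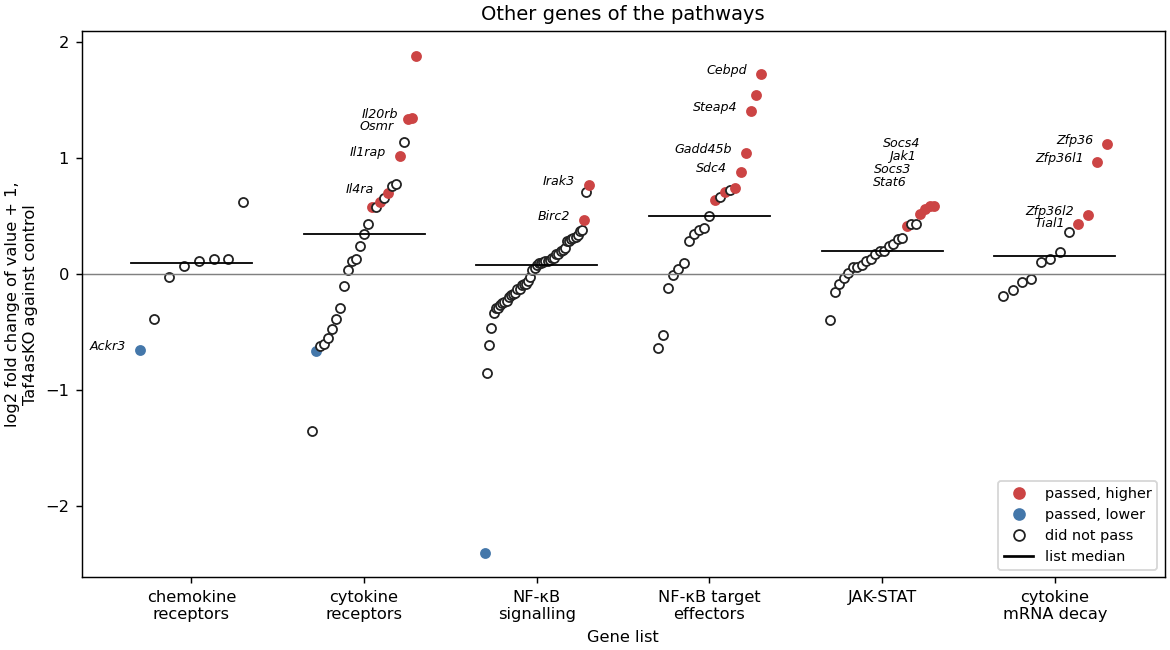
The log2 fold change of value + 1 (Taf4asKO against control) of the tested genes of 6 lists that are not members, ordered within a list, with filled points for genes that passed the test and a bar at the list median. Medians lie between 0.08 and 0.50, the lowest for NF-κB signalling genes, and Nod2 at -2.40 is the lowest point.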

How the data were processed

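MuSC RNA was sequenced in 3 control and 3 Taf4asKO libraries (SMARTer Stranded Total RNA-Seq Pico kit). According to the methods and the submitters' processing notes, the authors trimmed reads with Trimmomatic 0.39, aligned them with STAR 2.6.0c to mm10, removed multimapping reads, counted reads over exons with featureCounts 1.6.0, leaving out reads that overlap several genes, and normalized with DESeq2 1.14.1. The deposited values, treated as a score, are these normalized counts rounded to whole numbers, so the original depth of each library is not known and no count model was used. Every value column belonged to a sample. Groups were taken from the labels, which do not say whether replicates are separate animals, so p-values measure the spread between these samples.

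Genes with a mean of at least 5 (18562) were tested on log2(value + 1) with limma 3.58.1 in R 4.3.3 (lmFit, eBayes with a trend, two-sided, Benjamini-Hochberg over all genes), with limits of adjusted p 0.05 and fold 1.3 taken from the study's methods. Fold changes on this scale understate those of low genes. The fit was also run on simulated data with the same spread setting for every gene. Changes were set only in genes with a mean of at least 50, so members below that mean are not covered. Members named with their values were those that passed, those with a mean of at least 100, and all NF-κB, IκB and TNF-induced members. Others, such as Il6, Ccl11 and Cxcl16, were named after their values were seen. In each pathway list, the 4 genes that passed with the largest change and a mean of at least 50, and the receptors of members that passed, were named. The members and lists were chosen with earlier results of these data known. Exon lengths are from GENCODE M21, in which 99.8% of the table's gene identifiers were found. The figures were drawn with matplotlib 3.10.9 in Python 3.11.15.

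Same-numbered control and Taf4asKO libraries deviated from their group means together (correlations 0.235, 0.126 and 0.150 for numbers 1, 2 and 3). The mean of other pairs was -0.0848. Deviations from a group mean sum to 0, so that mean is nearly set by the same-numbered pairs and is not a separate comparison. The model was refitted with the replicate numbers as a replicate block, whose value is given beside named genes whose call it changed. Counts over the marker and pathway lists are without the block. The other alternatives were each library left out, pseudocounts, scalings, filters on the mean, stricter limits, limma treat and robust eBayes.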

Additional observations from a re-analysis of the deposited data

Results flagged for a closer look

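Il27, which encodes a subunit of the cytokine IL-27, was under the mean of 5 and was left out of the main test. It was listed at 0 in all 3 control libraries and at 2, 6 and 1 normalized counts in the Taf4asKO libraries. It was singled out because it had values above those of the controls in data outside the main test. No test result is given for it here.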

How the results depend on the processing

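Ccl2, Ccl7 and Cxcl1 passed under all 17 alternatives run. With the replicate block, 12 members were higher and 2 lower, all 11 that passed without it were among them, and 3355 genes passed in all (18.1%), 1688 of them higher, against 1101 without it. The block changed the calls of Ccl11, Cxcl14, Tnfaip8, Cxcr4 and Lyz2, and changed no other call among the members and the pathway genes named with their values. When 1 library was left out, members higher ranged from 3 to 11, members lower from 0 to 2, other pathway genes higher from 13 to 27, all genes higher from 341 to 1616 and all genes lower from 595 to 1505. At an adjusted p under 0.01, 3 members were higher and 0 lower, with 11 other pathway genes higher, and 331 of all genes higher and 545 lower. With a fold limit of 2, 0 members were lower, 9 other pathway genes were higher and 1 lower, and 330 of all genes were higher and 520 lower. With limma treat, 3 members were higher and 0 lower, 6 other pathway genes were higher and 1 lower, and 131 of all genes were higher and 304 lower. With a pseudocount of 0.1, and with upper-quartile scaling, 1 member was lower, which was Tnfaip3. The scalings moved the median log2 fold change of all genes to no further than -0.03. Leaving out 1 library turned the direction of genes that had not passed, and log2 fold changes ranged from -0.0592 to 0.3355 for Il16, -0.0512 to 0.1384 for Tnfaip1, -0.074 to 0.0393 for Nfkb1, -0.1324 to 0.0867 for Nfkbib, -0.3003 to 0.03 for Tnfaip8l1, -0.4866 to 0.0504 for Nfkbie, -0.3935 to 0.0256 for Nfkb2 and -0.3725 to 0.3071 for Cd68. The cause of these changes was not tested. Over 27 members named with their values, 391 of 457 alternative values kept their direction and side of the limits, 49 no longer passed, 5 newly passed and 12 reversed. Cxcl2 was not tested with a minimum mean of 20. Normalized counts under about 10, as for Ptgs2, Tnfaip8l2 and the controls of Ccl7 and Cxcl2, leave little precision.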

Other observations

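The 14 genes with a matching symbol and a mean under 5 were left out of the main test. Cxcl5, a further CXCR2 ligand, had 0, 0 and 2 normalized counts in the controls and 4, 2 and 6 in the Taf4asKO libraries. Cxcl3, of the same group, was listed at 0 in every control and at 5, 1 and 0. Cxcl11, annotated as a polymorphic pseudogene, had 0, 3 and 4 against 8, 4 and 8, and Cxcl9 had 1, 2 and 0 against 5, 0 and 1. The type 2 cytokine gene Il5 had 1, 0 and 6 against 7, 5 and 8. Cxcl13, a B cell chemokine, had 2, 7 and 2 in the controls and was listed at 0 in every Taf4asKO library. Ccl5, Ccl17, Ccl19-ps1, Csf3, Cxcl17, Il4 and Il13 overlapped between the groups.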
